A study of Mus musculus with 9 samples.

Results

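The glucocorticoid response and the corticotropin-releasing hormone (CRH) pathway were followed through 10 genes in bulk RNA sequencing of mouse hippocampal cells. They were taken from the table by gene symbol. They are the corticosteroid receptor genes Nr3c1 and Nr3c2, the glucocorticoid-induced genes Fkbp5, Sgk1, Tsc22d3, Zbtb16, Hif3a and Pdk4, and the CRH pathway genes Crhbp and Crhr1. All 10 were found by Ensembl identifier among the 55421 genes of the count table, and all 10 were among the 20032 genes with enough counts to be tested.

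The 9 libraries form 3 groups of 3, which the labels give as 3 mice each: Tmsb4x conditional knockout mice after mild traumatic brain injury (CKO mTBI), wild-type mice after the same injury (WT mTBI), and wild-type mice after a sham operation. The injury was a single controlled impact of mild strength on the cortex, and the sham operation was the same procedure without the impact. All mice carried the red fluorescent protein tdTomato in neurons, and live hippocampal cells were sorted on it after trypsin dissociation. The labels do not give the sex or age of the mice, the time after injury, the promoter behind tdTomato, the Cre line or the part of Tmsb4x that was deleted, and knockout mice with a sham operation were not analysed here.

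Corticosterone, the main glucocorticoid of mice, acts through a pair of receptors that bind DNA once the hormone has bound them. The mineralocorticoid receptor, encoded by Nr3c2, binds it with high affinity and is abundant in hippocampal neurons, while the glucocorticoid receptor, encoded by Nr3c1, binds it with lower affinity and is engaged when the hormone is high, as in stress. Upstream, CRH drives the release of this hormone through the pituitary, and within the brain CRH also acts locally on its receptor Crhr1, with the binding protein Crhbp holding part of the peptide away from the receptor.

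The libraries held 36452443 to 39590872 counts, and the 10 genes had between 309 and 7443 counts each. Each level is the gene's count relative to the size of its library (CPM), with library sizes adjusted by the trimmed mean of M-values (TMM). Tmsb4x had 70, 109 and 108 counts in CKO mTBI libraries, 35061, 21678 and 11921 counts in WT mTBI libraries, and 105, 61 and 85 counts in wild-type sham libraries as labelled. The sham libraries thus stood at the knockout level for the targeted gene, against their label, and are called labelled sham here. They also lay close together: sham libraries varied among themselves by 1.44 to 1.55 times the counting variance, against 11.9 to 22.3 times between CKO mTBI libraries and 10.3 to 38.4 times between WT mTBI libraries. Whether the sham libraries come from 3 separate mice, as labelled, or repeat shared material was not tested, so SDs of labelled sham may measure technical spread only. The p-values of every comparison use a spread estimated from all 9 libraries together. Its common coefficient of variation was 15.3%, against 18.7% in CKO mTBI, 19.6% in WT mTBI and 3.27% in labelled sham libraries alone. If the sham libraries repeat shared material, p-values may be too small in every comparison. WT mTBI replicate 3 had Xist at 834 CPM and Ddx3y at 0.050 CPM. The other 8 libraries had at most 0.892 CPM of Xist and 49.6 to 58.6 CPM of Ddx3y. By these sex-linked genes, WT mTBI replicate 3 read as female and the other 8 as male, so only WT mTBI mixed the sexes. The part of sex in the results was not tested. The 8 neuronal markers summed to 10760 to 11260 CPM in CKO mTBI, 9687 to 11370 in WT mTBI and 11510 to 11780 in labelled sham libraries. This sum was below labelled sham in every injured library, but single markers did not all follow it. Map2 was below labelled sham in every injured library. Snap25 was above it in all but WT mTBI replicate 3, narrowly so in CKO mTBI replicate 3. Tubb3 was above it in all WT mTBI libraries, at 298, 257 and 277 CPM against 239, 233 and 245 CPM. Markers of cells that a sort on a neuronal reporter would remove were present as well. The sum of the 8 astrocyte markers, led by Slc1a2 and Aldoc, was also lower in every injured library, with 4430 to 5040 CPM in CKO mTBI, 4058 to 4794 in WT mTBI and 5091 to 5187 in labelled sham libraries. Single astrocyte markers differed: Slc1a2 was below labelled sham in every injured library, and Aldoc overlapped it. Aldh1l1 was above labelled sham in every injured library, with means of 50.7 CPM in CKO mTBI, 50.8 in WT mTBI and 42.5 in labelled sham libraries. The 9 libraries had 3649 to 6490 CPM over 7 oligodendrocyte genes, led by Mbp and Mobp. Sums of oligodendrocyte precursor, endothelial, and mural and fibroblast markers lay between 194 and 332 CPM and overlapped between all groups. Ependymal markers summed to 19.5 to 31.3 CPM in CKO mTBI, 31.9 to 38.2 in WT mTBI and 22.8 to 23.7 in labelled sham libraries, and blood markers to 83.6 to 92.9 CPM in CKO mTBI, 37.3 to 173 in WT mTBI and 55.3 to 58.6 in labelled sham libraries. In such bulk libraries, fewer cells of a type and less RNA per cell cannot be told apart.

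In wild-type mice, injury went with a lower level of Crhbp, the only one of the 10 genes to pass the test in edgeR. It fell to 14.6 ± 2.48 CPM in WT mTBI libraries, against 24.7 ± 0.941 CPM in labelled sham libraries (SD, n = 3 each). Sgk1 and Tsc22d3 were higher in each of the 6 injured libraries than in every labelled sham library, without passing the test in edgeR. In WT mTBI against labelled sham, DESeq2 called Crhbp and also Tsc22d3, the latter with a log2 difference of 0.549 (adjusted p = 0.0315). Across the whole table, 0.509% of genes passed in WT mTBI against labelled sham, 0.384% higher and 0.125% lower in WT mTBI, at a Benjamini-Hochberg adjusted p under 0.05 in the quasi-likelihood test of edgeR. The libraries of WT mTBI and labelled sham did not overlap for 7 of the 10 genes, 3 higher and 4 lower in WT mTBI, against a background of 23.9% of all genes, 12.4% higher and 11.5% lower. The unadjusted p was under 0.05 for 3 of the 10 genes, against 13.2% of all genes. Without CKO mTBI replicate 2, which shares in the estimate of spread, this held for 5 of the 10 and 2924 of all 20520 genes. The median log2 difference was -0.07 over the 10 genes and 0.02 over all genes tested. Since labelled sham libraries carry as little Tmsb4x as the knockout, every direction against them rests on labels that the targeted gene contradicts.

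Between injured knockout and injured wild-type mice, none of the 10 genes passed the test in edgeR, and 1, Hif3a, passed in DESeq2. Hif3a was also the gene with the smallest p, at 17.5 ± 5.90 CPM in CKO mTBI libraries and 8.92 ± 0.650 CPM in WT mTBI libraries (SD, n = 3 each). The unadjusted p was under 0.05 for 4 of the 10 genes, against 6.6% of all genes, and 0.015% of all genes passed after adjustment. These p-values share in the small spread of labelled sham libraries. In a fit of only the 6 libraries compared, 620 of 19437 genes had an unadjusted p under 0.05, against 1323 of 20032 in the main fit. Libraries of the 2 groups did not overlap for 2 of the 10 genes, Hif3a higher and Crhr1 lower in CKO mTBI, against a background of 9.72%, with 4.86% in each direction. The median log2 difference was 0.15 over the 10 genes and 0.00 over all genes tested. Without CKO mTBI replicate 2 the median over the 10 genes was 0.09. An unadjusted p under 0.05 was then found for 2 of the 10, against 1440 of all 20520 genes.

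Set against labelled sham libraries, CKO mTBI libraries also had no call among the 10 genes in edgeR, and 3 calls in DESeq2, Crhbp lower and Hif3a and Tsc22d3 higher. Of all genes, 0.0699% passed. The unadjusted p was under 0.05 for 5 of the 10 genes, against 7.2% of all genes. The groups did not overlap for 6 of the 10 genes, 4 higher and 2 lower in CKO mTBI, against a background of 17.2%, 8.75% higher and 8.4% lower. The median log2 difference was 0.08 over the 10 genes, or -0.01 without CKO mTBI replicate 2, and 0.01 over all genes tested. The comparisons share libraries in pairs, so their values are not independent of each other.

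**Figure D1:**
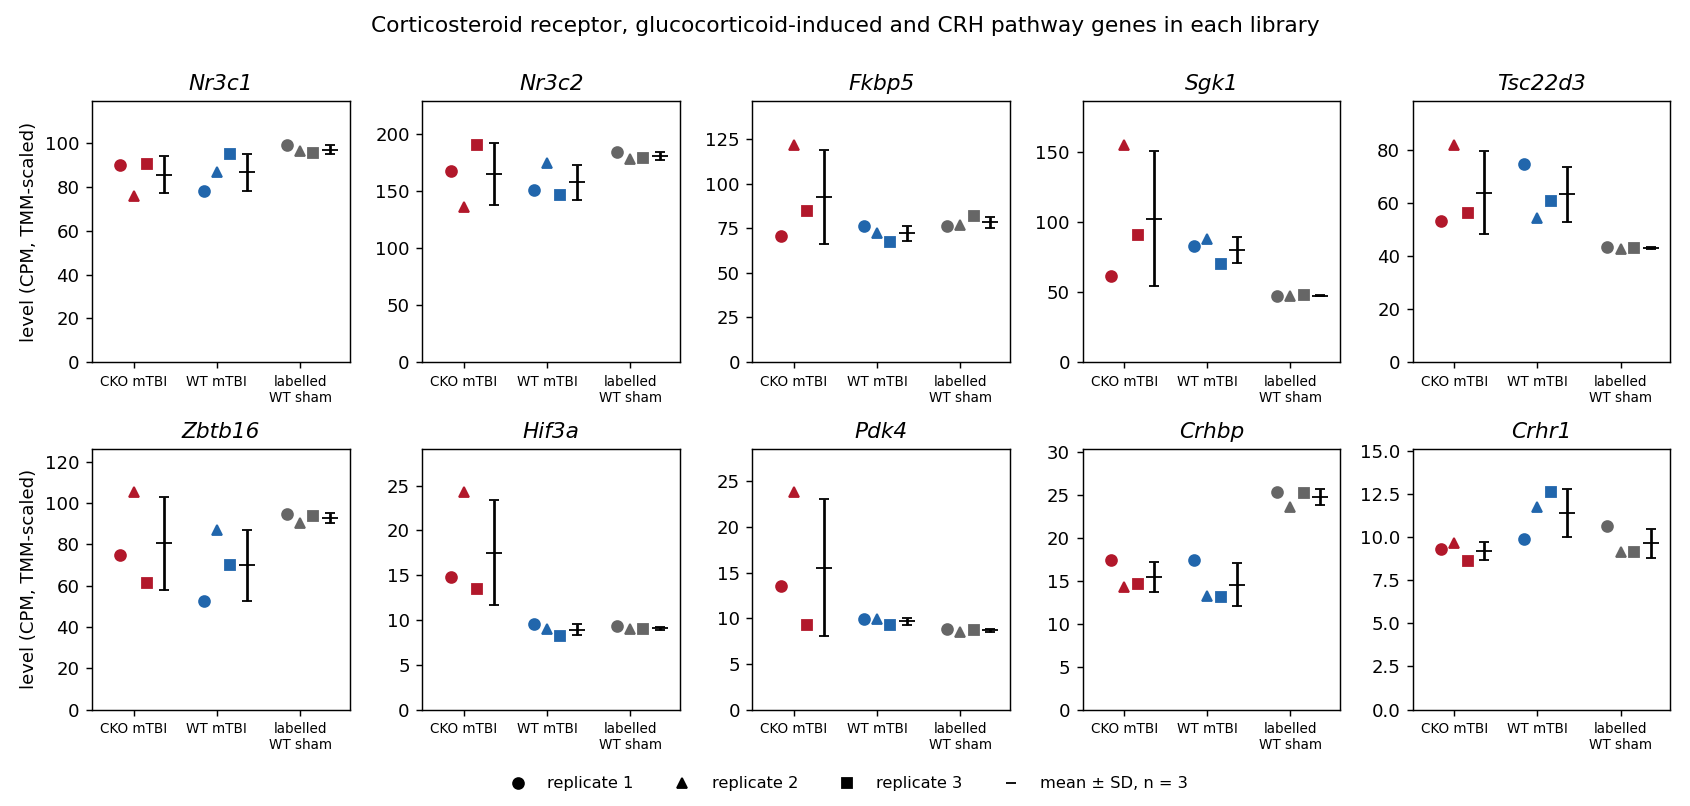
Level of each of the 10 genes in CPM (vertical axes from 0) in every library, with CKO mTBI in red, WT mTBI in blue and labelled sham in grey. Symbols mark replicate numbers, and the bars give the mean ± SD of 3 libraries. Crhbp lies below 17.5 CPM in all 6 injured libraries and above 23.6 CPM in labelled sham libraries, and the triangle of CKO mTBI replicate 2 is the highest point for Fkbp5, Sgk1, Tsc22d3, Zbtb16, Hif3a and Pdk4.

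Per kilobase of exon, Nr3c2 was the most abundant of the 10 genes in all 3 groups, with 25.5 ± 4.24 CPM per kb in CKO mTBI, 24.4 ± 2.34 in WT mTBI and 27.9 ± 0.541 in labelled sham libraries (SD, n = 3 each). Hif3a was the least abundant, with 2.61 ± 0.879 CPM per kb in CKO mTBI, 1.33 ± 0.0969 in WT mTBI and 1.35 ± 0.0272 in labelled sham libraries. In labelled sham libraries Nr3c2 was followed by Zbtb16, Crhbp, Nr3c1, Tsc22d3, Sgk1, Fkbp5, Crhr1, Pdk4 and Hif3a. Of these neighbours, Tsc22d3 at 9.88 ± 0.112 and Sgk1 at 9.66 ± 0.125 CPM per kb did not differ beyond the sum of their SDs. In WT mTBI libraries Sgk1 was the second gene in order, at 16.3 ± 1.87 CPM per kb, ahead of Tsc22d3 at 14.6 ± 2.40 and Zbtb16 at 13.2 ± 3.27, and these 3 lay within each other's spread. Crhbp stood at 8.10 ± 1.38 CPM per kb there, next to Fkbp5 at 7.61 ± 0.461, which is also within the spread. In CKO mTBI libraries Sgk1 was again the second gene, at 20.9 ± 9.82 CPM per kb, a spread wide enough to reach Nr3c2, Zbtb16 and Tsc22d3.

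**Figure D2:**
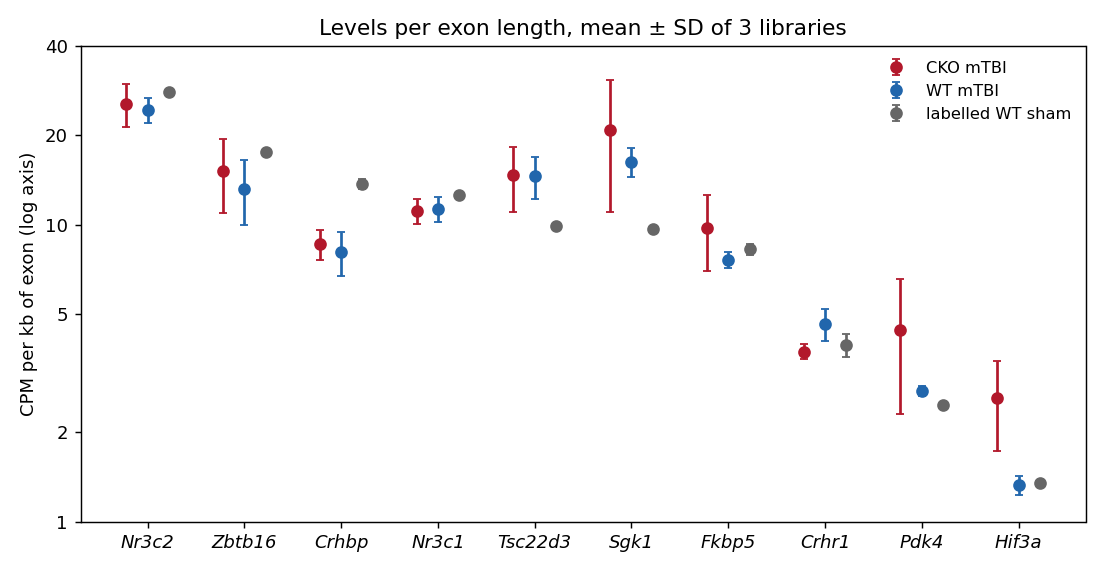
Level per kilobase of exon (CPM per kb, log axis) of the 10 genes, ordered by their level in labelled sham libraries. Points are means and bars are SDs of 3 libraries, with CKO mTBI in red, WT mTBI in blue and labelled sham in grey. Sgk1 is the second gene in both injured groups and stands near Tsc22d3, at 9.66 CPM per kb, in labelled sham libraries.

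Neither receptor gene passed the test in a comparison, in edgeR or DESeq2. Nr3c1 had 90.3, 75.8 and 90.6 CPM in CKO mTBI libraries, 78.4, 86.8 and 95.3 CPM in WT mTBI libraries, and 99.5, 96.3 and 95.6 CPM in labelled sham libraries. All 6 injured libraries lay below the lowest labelled sham library, although WT mTBI replicate 3 came close to it. On the log2 scale Nr3c1 differed by -0.16 ± 0.092 (SE; adjusted p = 0.468) in WT mTBI against labelled sham, -0.18 ± 0.092 (adjusted p = 0.763) in CKO mTBI against labelled sham and -0.02 ± 0.092 (adjusted p = 0.958) in CKO mTBI against WT mTBI. Nr3c2 had 168, 136 and 191 CPM in CKO mTBI libraries, 151, 175 and 147 CPM in WT mTBI libraries, and 185, 179 and 179 CPM in labelled sham libraries. Its WT mTBI libraries were all below labelled sham, and its CKO mTBI libraries spanned both other groups. For Nr3c2 the log2 difference was -0.20 ± 0.113 (adjusted p = 0.469) in WT mTBI against labelled sham and 0.07 ± 0.113 (adjusted p = 0.870) in CKO mTBI against WT mTBI. Of the exonic bases of Nr3c2 (ENSMUSG00000031618, GRCm38 chr8:76899442-77245012, plus strand), 3.82% are shared with a gene on the opposite strand, and the other 9 genes share none.

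The balance of both receptors, a quantity often followed in the hippocampus, also overlapped between the groups. The ratio of Nr3c2 to Nr3c1 per kilobase was 2.28 ± 0.191 in CKO mTBI, 2.17 ± 0.299 in WT mTBI and 2.21 ± 0.010 in labelled sham libraries (SD, n = 3 each). The lowest ratio was 1.83 in WT mTBI replicate 3 and the highest 2.5 in CKO mTBI replicate 3, so the labelled sham libraries lay inside the range of both injured groups.

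The unliganded receptor is held by heat shock chaperones and, once in the nucleus, works with coactivators and corepressors. Of 16 such genes tested, 0 passed in any of the comparisons, in edgeR or DESeq2. In WT mTBI against labelled sham, 2 of 16 had an unadjusted p under 0.05, against 13.2% of all genes. They were the Mediator subunit Med1, with a log2 difference of -0.21 (adjusted p = 0.344), and the phosphatase Ppp5c, with 0.18 (adjusted p = 0.377). Med1 was also first in CKO mTBI against WT mTBI, with 0.27 (adjusted p = 0.732), before the cochaperone Bag1 with -0.25 (adjusted p = 0.732). Against labelled sham, the coactivators Ncoa1 and Ncoa3 came first in CKO mTBI, with -0.11 and -0.12 (adjusted p = 0.999 each). The median log2 difference of the 16 genes was 0.04, -0.05 and -0.02 in WT mTBI against labelled sham, CKO mTBI against WT mTBI and CKO mTBI against labelled sham.

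Fkbp5 encodes the cochaperone FKBP51, which glucocorticoids induce and which lowers the hormone affinity of the receptor, closing a feedback loop. It lies at GRCm38 chr17:28399094-28517527 (minus strand, ENSMUSG00000024222). It had 70.5, 122 and 84.8 CPM in CKO mTBI libraries, 76.1, 72.5 and 67.4 CPM in WT mTBI libraries, and 76.0, 76.9 and 81.9 CPM in labelled sham libraries. CKO mTBI replicate 2 stood alone at the top, and the remaining 8 libraries lay between 67.4 and 84.8 CPM. For Fkbp5 the log2 difference was 0.36 ± 0.157 (SE; unadjusted p = 0.0427, adjusted p = 0.732) in CKO mTBI against WT mTBI and 0.11 without CKO mTBI replicate 2. Against labelled sham it was 0.24 ± 0.157 (adjusted p = 0.894) in CKO mTBI, or -0.02 without that replicate, and -0.12 ± 0.157 (adjusted p = 0.758) in WT mTBI.

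Sgk1 (ENSMUSG00000019970, GRCm38 chr10:21882184-21999903, plus strand) encodes a kinase that phosphorylates regulators of ion channels and transporters and is a rapid target of both corticosteroid receptors. In the RefSeq promoter table of GRCm38.p6, which holds 8 of the 10 genes, it was the only one of those 8 whose 250 bases before a start held the full palindromic glucocorticoid response element, searched on both strands as the half-site AGAACA, any 3 bases and its reverse complement TGTTCT. Among 32851 promoter windows of that length, 3 held it, a share of 0.00913%. The match lies at chr10:21993701-21993715, 189 to 175 bases before 1 of the 6 Sgk1 starts in the table. A relaxed form, with the shorter half-sites GNACA and TGTNC at the same spacing, which every full element also matches, was present in 127 windows (0.387%). It recurred among 18 matched genes of a list of 20 other glucocorticoid-induced genes only in Fam107a (chr14:8309885-8309897, minus strand) and Mt1 (chr8:94178995-94179007, plus strand). The windows of Sgk1 (chr10:21993640-21993889, plus strand), Fam107a (chr14:8309780-8310029, minus strand) and Mt1 (chr8:94178839-94179088, plus strand) are printed because Sgk1 holds the full element and Fam107a and Mt1 the relaxed form, and capitals mark the match.
Sgk1: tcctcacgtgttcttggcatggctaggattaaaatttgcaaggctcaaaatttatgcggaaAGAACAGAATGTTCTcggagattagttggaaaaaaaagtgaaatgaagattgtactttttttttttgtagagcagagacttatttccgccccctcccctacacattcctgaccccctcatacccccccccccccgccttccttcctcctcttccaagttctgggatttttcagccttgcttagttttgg
Fam107a: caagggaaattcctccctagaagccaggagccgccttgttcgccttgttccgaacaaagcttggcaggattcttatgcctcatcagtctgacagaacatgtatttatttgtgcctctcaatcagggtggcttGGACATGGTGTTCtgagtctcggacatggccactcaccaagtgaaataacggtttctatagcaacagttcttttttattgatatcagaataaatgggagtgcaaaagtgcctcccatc
Mt1: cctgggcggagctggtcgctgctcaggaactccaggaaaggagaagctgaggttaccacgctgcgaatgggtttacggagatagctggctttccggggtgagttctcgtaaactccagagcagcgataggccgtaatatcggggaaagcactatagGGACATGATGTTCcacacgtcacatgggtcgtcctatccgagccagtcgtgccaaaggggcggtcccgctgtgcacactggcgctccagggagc
The cyclic AMP response element TGACGTCA, through which CRH receptor signalling can act, was in 508 windows (1.55%), in none of the windows of the 8 matched genes, and in those of Errfi1 and Dusp1 among the other glucocorticoid-induced genes. A match here is a description of the letters in these windows and was not tested against binding.

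Sgk1 had 61.1, 155 and 90.4 CPM in CKO mTBI libraries, 82.9, 87.4 and 69.8 CPM in WT mTBI libraries, and 47.2, 46.8 and 48.0 CPM in labelled sham libraries. Every injured library was above every labelled sham library, while the injured groups overlapped and CKO mTBI replicate 2 was the highest of all. The log2 difference was 0.76 ± 0.252 (SE; unadjusted p = 0.0119, adjusted p = 0.241) in WT mTBI against labelled sham, a 1.69-fold level. It was 1.11 ± 0.253 (unadjusted p = 0.00106, adjusted p = 0.171) in CKO mTBI against labelled sham, a 2.16-fold level. Without CKO mTBI replicate 2 these values became 0.75 (adjusted p = 0.0479) and 0.67 (adjusted p = 0.175), so that Sgk1 then passed in WT mTBI. Over all alternatives run, the adjusted p of Sgk1 in WT mTBI against labelled sham ranged from 0.000804 to 1. Between CKO mTBI and WT mTBI the log2 difference was 0.35 ± 0.250 (adjusted p = 0.745), and -0.08 without that replicate.

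Tsc22d3 (ENSMUSG00000031431, GRCm38 chrX:140539528-140600659, minus strand) encodes GILZ, a leucine zipper protein that carries part of the anti-inflammatory action of glucocorticoids. It had 53.2, 81.9 and 56.3 CPM in CKO mTBI libraries, 74.6, 54.3 and 60.7 CPM in WT mTBI libraries, and 43.4, 42.4 and 42.8 CPM in labelled sham libraries. As for Sgk1, all injured libraries lay above all labelled sham libraries and the injured groups overlapped. Tsc22d3 differed on the log2 scale by 0.56 ± 0.158 (SE; unadjusted p = 0.00452, adjusted p = 0.163) in WT mTBI against labelled sham and 0.57 ± 0.158 (adjusted p = 0.302) in CKO mTBI against labelled sham, or 0.35 without CKO mTBI replicate 2. Between the injured groups it was 0.01 ± 0.157 (adjusted p = 0.984), and -0.20 without that replicate. DESeq2 called Tsc22d3 higher in both injured groups against labelled sham. Its values were 0.549 (adjusted p = 0.0315) in WT mTBI and 0.567 (adjusted p = 0.0436) in CKO mTBI.

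Zbtb16 (ENSMUSG00000066687, GRCm38 chr9:48654297-48836222, minus strand), the gene of the zinc finger transcription factor PLZF, which responds strongly to glucocorticoids in several tissues, went the other way by level. It had 74.9, 105 and 61.0 CPM in CKO mTBI libraries, 52.4, 87.0 and 70.0 CPM in WT mTBI libraries, and 94.4, 90.1 and 93.7 CPM in labelled sham libraries. The WT mTBI libraries were all below labelled sham, and so were the CKO mTBI libraries other than replicate 2. Its log2 difference was -0.41 ± 0.197 (SE; adjusted p = 0.398) in WT mTBI against labelled sham, and -0.21 ± 0.197 (adjusted p = 0.999) in CKO mTBI against labelled sham, or -0.45 without replicate 2. Between the injured groups it was 0.20 ± 0.197 (adjusted p = 0.781), and -0.04 without that replicate.

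Hif3a (ENSMUSG00000004328, GRCm38 chr7:17031507-17062427, minus strand) encodes a hypoxia-inducible factor subunit that can restrain the other members of its family and is also induced by glucocorticoids. It had 14.8, 24.3 and 13.5 CPM in CKO mTBI libraries, 9.56, 8.94 and 8.26 CPM in WT mTBI libraries, and 9.29, 8.95 and 9.00 CPM in labelled sham libraries. The 3 CKO mTBI libraries were above the 6 others, which overlapped each other between 8.26 and 9.56 CPM. For Hif3a the log2 difference was 0.97 ± 0.193 (SE; unadjusted p = 0.000366, adjusted p = 0.732) in CKO mTBI against WT mTBI, a 1.96-fold level, and 0.95 ± 0.193 (unadjusted p = 0.000452, adjusted p = 0.151) against labelled sham. Without CKO mTBI replicate 2 the differences were 0.67 (adjusted p = 0.321) and 0.63 (adjusted p = 0.0924), with the 2 remaining knockout libraries still above the 6 others. Over all alternatives run, the adjusted p of Hif3a ranged from 0.000657 to 0.935 against WT mTBI and from 0.00017 to 1 against labelled sham. In WT mTBI against labelled sham the difference was -0.03 ± 0.195 (adjusted p = 0.966).

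Pdk4 (ENSMUSG00000019577, GRCm38 chr6:5483351-5496309, minus strand) encodes a kinase that inactivates pyruvate dehydrogenase and so shifts cells from glucose to fat oxidation. It had 13.6, 23.8 and 9.27 CPM in CKO mTBI libraries, 9.92, 9.88 and 9.23 CPM in WT mTBI libraries, and 8.85, 8.51 and 8.71 CPM in labelled sham libraries. CKO mTBI replicates 1 and 2 were above the WT mTBI range and replicate 3 lay inside it, and all 6 injured libraries were above labelled sham. The log2 difference was 0.68 ± 0.260 (SE; unadjusted p = 0.0231, adjusted p = 0.732) in CKO mTBI against WT mTBI and 0.24 without replicate 2. Against labelled sham it was 0.84 ± 0.261 (adjusted p = 0.388) in CKO mTBI, or 0.39 without replicate 2, and 0.16 ± 0.262 (adjusted p = 0.821) in WT mTBI.

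**Figure D3:**
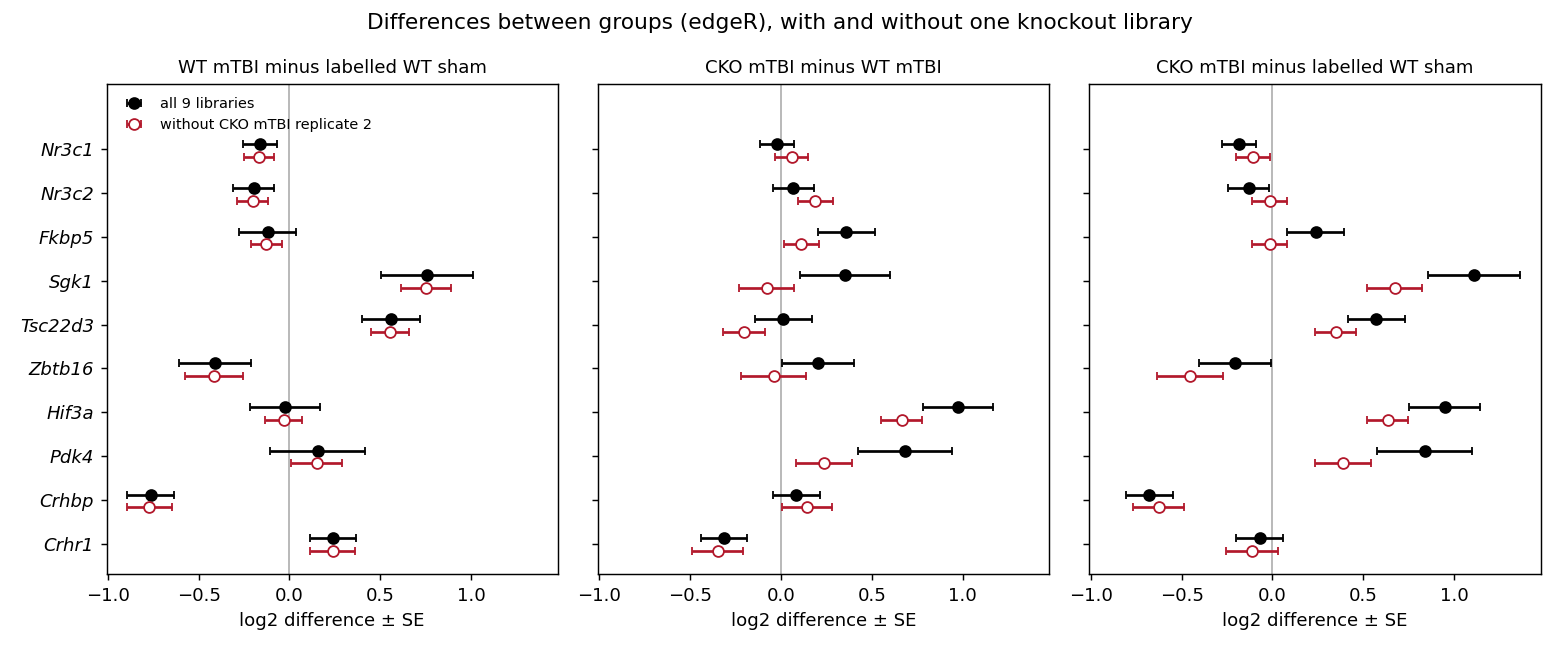
Log2 differences ± SE (horizontal axes) of the 10 genes in the 3 comparisons, from all 9 libraries (black) and without CKO mTBI replicate 2 (open red). Crhbp sits at -0.76 in WT mTBI against labelled sham with or without that library (-0.77), and the open points of Sgk1, Fkbp5, Hif3a and Pdk4 lie left of the black ones where knockout libraries are compared.

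CKO mTBI replicate 2 had the highest level of the 9 libraries for all 6 glucocorticoid-induced genes studied, Fkbp5 included, against 14.1% of all genes tested. It led the next library by more than 1.2 times for 4 of the 6, against 3.74% of all genes, a factor chosen after the values were seen. These leads were 1.76-fold for Pdk4, 1.72-fold for Sgk1, 1.64-fold for Hif3a and 1.44-fold for Fkbp5, while Zbtb16 and Tsc22d3 led by 1.11-fold and 1.10-fold. Neither receptor gene nor Crhbp or Crhr1 was highest in that library. The 7 microglial markers summed to 311.5 CPM in it, led there by Csf1r and C1qb, against 225.5 to 265.5 CPM in the other 8 libraries. They did not move as one: 5 of the 7 were highest in that library, Tmem119 at 16.4 CPM lay within the range of the others, and P2ry12 was lowest there, at 16.7 CPM against 28.8 to 34.4 CPM. The part of these markers in the result was not tested.

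The same library was also the highest for 17 of the 20 other glucocorticoid-induced genes, and by more than 1.2 times for 12 of them. The exceptions were the clock gene Per1, the phosphatase gene Dusp1 and the metallothionein gene Mt2. The genes with the widest leads are named after their values were seen. Lcn2, the gene for the iron-sequestering acute-phase protein lipocalin, had 133 CPM there and at most 5.95 CPM elsewhere. Plin4, a lipid droplet coat gene, had 62.9 CPM there and 11.0 CPM in CKO mTBI replicate 1, the next library. Sult1a1, a sulfotransferase gene, had 39.0 CPM against 12.2 CPM in the next, Cdkn1a, the gene of the cell cycle inhibitor p21, had 22.0 against 6.87 CPM, and Fam107a, an actin-associated stress gene, had 739 against 352 CPM. Of the 16 chaperone and coregulator genes, 1 was highest in that library, and none by more than 1.2 times. With 1 library behind it, this pattern has no replicate within its group.

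**Figure D4:**
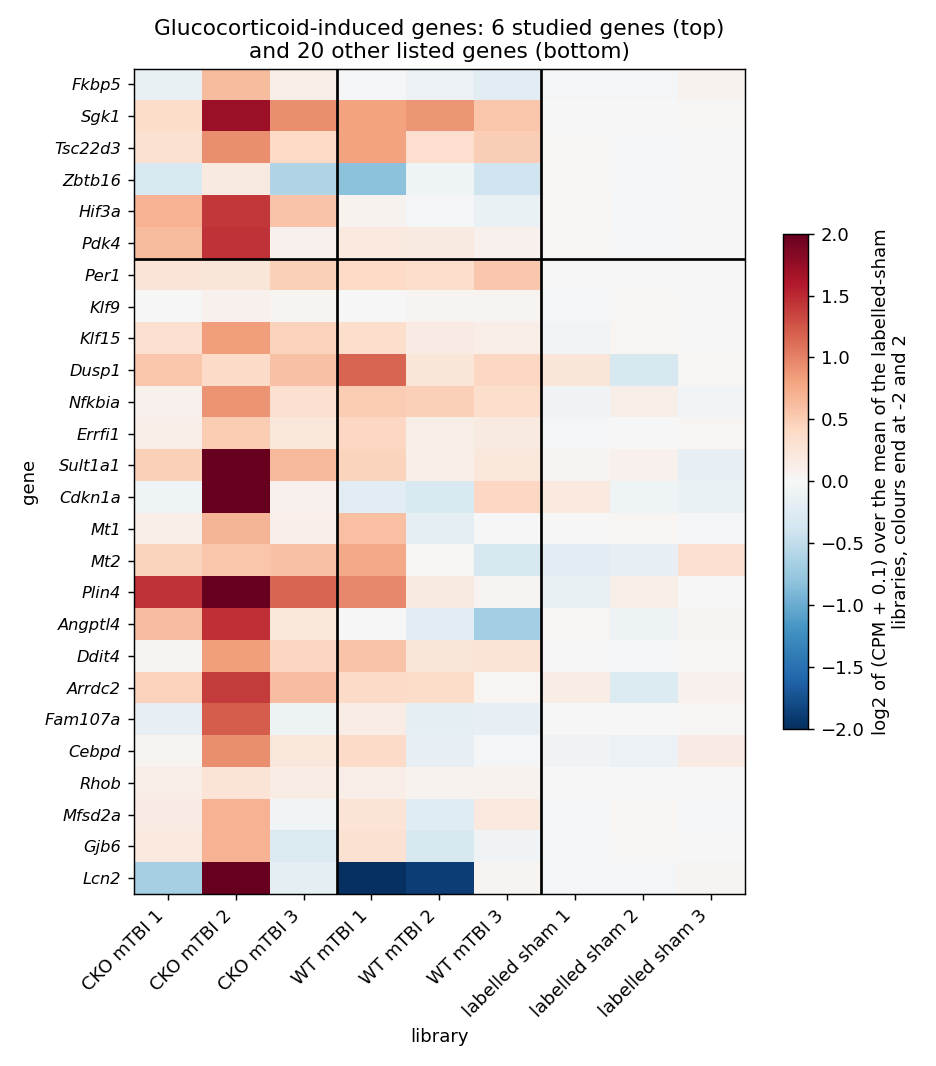
Level of 26 glucocorticoid-induced genes in each library as log2 of (CPM + 0.1) over the mean of labelled sham libraries, red for higher and blue for lower, with colours ending at -2 and 2. Columns are the 9 libraries, and the 6 studied genes are above the horizontal line. The column of CKO mTBI replicate 2 is the reddest for 23 of the 26 genes, and Lcn2 at 133 CPM, Plin4 at 62.9 CPM, Sult1a1 at 39.0 CPM and Cdkn1a at 22.0 CPM pass the end of the scale.

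The 20 other glucocorticoid-induced genes had 0 calls in edgeR in each comparison, while DESeq2 called Per1 higher in WT mTBI against labelled sham, and Klf15, Plin4 and Arrdc2 higher in CKO mTBI against labelled sham. In WT mTBI against labelled sham, 16 of 20 had a positive log2 difference with a median of 0.20, against 0.02 over all genes tested. An unadjusted p under 0.05 was found for 4 of 20, all higher in WT mTBI, against 13.2% of all genes. Per1 came nearest to a call, with 97.4, 95.0 and 107 CPM in WT mTBI libraries and 73.6, 74.0 and 75.0 CPM in labelled sham libraries, a log2 difference of 0.43 ± 0.082 (SE; adjusted p = 0.0514). Its WT mTBI libraries were all above labelled sham, as were its CKO mTBI libraries at 88.7, 87.4 and 103 CPM. Per1 passed without WT mTBI replicate 1, with 0.45 (adjusted p = 0.0432). Dusp1 followed with 0.67 ± 0.222 (adjusted p = 0.237), at 26.0, 13.7 and 15.4 CPM in WT mTBI libraries and 13.6, 9.20 and 11.7 CPM in labelled sham libraries. WT mTBI replicate 1 was the highest, and without it the difference of Dusp1 was 0.34 (adjusted p = 0.399). All 10 immediate early genes, a list of activity-induced genes such as Fos and Arc, were also highest in that library. They summed to 621 CPM there, against 321 to 442 CPM in the other 8. That library was also the highest for 5432 of the 20032 genes tested, the largest number of any library. It was the highest for 8 of the 16 chaperone and coregulator genes. Of the 10 immediate early genes, 0 were called in edgeR in WT mTBI against labelled sham. An unadjusted p under 0.05 was found for 6 of them, against 13.2% of all genes, and DESeq2 called Arc, Egr2 and Fos higher. Their part in the values of Dusp1 was not tested. With CKO mTBI set against WT mTBI, 18 of the 20 other glucocorticoid-induced genes were positive. An unadjusted p under 0.05 was found for 6 of 20, against 6.6% of all genes, whose median log2 difference was 0.00. Without CKO mTBI replicate 2, 9 of 20 were positive, and their median of 0.29 became -0.01. An unadjusted p under 0.05 was then found for 2 of 20, against 1440 of all 20520 genes. The smallest p values belonged to Plin4, with 2.32 ± 0.625, and Angptl4, a lipoprotein lipase inhibitor gene, with 1.18 ± 0.323 (adjusted p = 0.732 each), and these became 0.865 and 0.745 without that library. With CKO mTBI set against labelled sham, 20 of 20 were positive, 12 with an unadjusted p under 0.05, and the median was 0.48. Over all genes, 7.2% had such a p and the median was 0.01. Without that library 16 of 20 were positive, and the median was 0.19. An unadjusted p under 0.05 was then found for 6 of 20, against 1787 of all 20520 genes. First in order of p were Plin4 with 2.80 ± 0.643 (adjusted p = 0.175) and the transcription factor gene Klf15 with 0.55 ± 0.129 (adjusted p = 0.186), or 1.33 and 0.38 without it.

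Genes that make, convert or carry corticosteroids gave 7 tested of 10 listed, with 0 calls in edgeR or DESeq2. In the 3 comparisons below, 0, 2 and 1 of them had an unadjusted p under 0.05, against 13.2%, 6.6% and 7.2% of all genes. Median log2 differences were 0.00 in WT mTBI against labelled sham, -0.02 in CKO mTBI against WT mTBI and -0.07 in CKO mTBI against labelled sham. Hsd11b1, which regenerates active glucocorticoid inside cells, had 15.6, 21.6 and 22.1 CPM in CKO mTBI libraries, 26.8, 23.6 and 23.4 CPM in WT mTBI libraries, and 24.6, 24.3 and 24.3 CPM in labelled sham libraries. The 3 knockout libraries were below the 6 others. The log2 difference was -0.32 ± 0.126 (SE; unadjusted p = 0.0282, adjusted p = 0.732) against WT mTBI and -0.31 ± 0.126 (adjusted p = 0.613) against labelled sham. Srd5a1, a steroid reductase gene, gave -0.60 ± 0.237 in CKO mTBI against WT mTBI (adjusted p = 0.732), -0.31 ± 0.238 against labelled sham (adjusted p = 0.957), and 0.29 ± 0.236 in WT mTBI against labelled sham (adjusted p = 0.612). Without CKO mTBI replicate 2 the first 2 of these were -0.33 and -0.05. The efflux transporter gene Abcb1b gave -0.23 ± 0.129 in WT mTBI against labelled sham (adjusted p = 0.470).

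Crhbp (ENSMUSG00000021680, GRCm38 chr13:95431371-95444924, minus strand) encodes the secreted protein that binds CRH and related peptides and is expressed by a subset of neurons, many of them interneurons. It had 17.5, 14.2 and 14.7 CPM in CKO mTBI libraries, 17.4, 13.2 and 13.1 CPM in WT mTBI libraries, and 25.4, 23.7 and 25.2 CPM in labelled sham libraries, from 518 to 977 counts per library. All 6 injured libraries were below all labelled sham libraries, and the 2 injured groups overlapped. Crhbp fell by 0.76 ± 0.129 on the log2 scale in WT mTBI against labelled sham (SE; edgeR adjusted p = 0.0374), to 0.589 of its level. In CKO mTBI against labelled sham the log2 difference was -0.68 ± 0.128 (unadjusted p = 0.000251, adjusted p = 0.132), and in CKO mTBI against WT mTBI it was 0.09 ± 0.129 (adjusted p = 0.851).

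The call on Crhbp depended on which libraries were kept. It was lost without CKO mTBI replicate 3 (adjusted p = 0.0611), WT mTBI replicate 2 (0.0639) or 3 (0.102), or labelled sham replicate 1 (0.237), 2 (0.195) or 3 (0.211), with log2 differences of -0.70 to -0.80, and with the sham libraries summed to 1 (-0.76, adjusted p = 1). The lowest adjusted p of Crhbp over the alternatives was 9.32e-06, in DESeq2. The 9 interneuron markers, of which Gad1 was the highest in each library, summed to 1006, 813 and 852 CPM in CKO mTBI libraries, 1021, 914 and 920 CPM in WT mTBI libraries, and 896, 928 and 919 CPM in labelled sham libraries. These sums overlapped, but single markers did not all do so. Reln had 95.7, 80.2 and 82.5 CPM in CKO mTBI libraries, 64.8, 98.03 and 93.6 CPM in WT mTBI libraries, and 102, 103 and 106 CPM in labelled sham libraries, so that it was lower in every injured library, as Crhbp was. Sst was below labelled sham in all injured libraries other than WT mTBI replicate 1. The margin was very narrow in CKO mTBI replicate 1, at 181.04 CPM against 181.11 CPM in labelled sham replicate 1. Other markers went the opposite way: Gad1, Slc32a1 and, narrowly, Vip were above labelled sham in all WT mTBI libraries. Of the 9, 0 were called in edgeR or DESeq2 in any comparison. Only 1, Vip, had an unadjusted edgeR p under 0.05, in WT mTBI against labelled sham. It was higher in WT mTBI, with a log2 difference of 0.42 (adjusted p = 0.340). The part of interneuron and neuronal content in the level of Crhbp was not tested.

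The 8 choroid plexus markers, led by Ttr and Kl, separated 5 of the 6 injured libraries from labelled sham, and 6 of the 8 were called higher in WT mTBI against labelled sham. None was at 0 in a library. They summed to 55.1, 3705 and 2972 CPM in CKO mTBI libraries, 3179, 4353 and 4412 CPM in WT mTBI libraries, and 45.6, 45.8 and 46.5 CPM in labelled sham libraries. CKO mTBI replicate 1 was thus near the labelled sham level of this sum. It was not near that level for every marker, as Otx2 had 5.23 CPM there, against 0.571, 0.826 and 1.10 CPM in labelled sham libraries. In CKO mTBI replicate 1, Crhbp was at 17.5 CPM, below all labelled sham libraries, while Sgk1 at 61.1 CPM and Tsc22d3 at 53.2 CPM were above all of them. The mean log2 CPM of the 8 choroid markers, in place of their sum, was then used as a covariate. With it, the WT mTBI difference from labelled sham was -0.39 for Crhbp (adjusted p = 0.575), -0.40 for Sgk1 (adjusted p = 0.682), -0.23 for Pdk4 (adjusted p = 0.897) and 0.18 for Tsc22d3 (adjusted p = 0.859). It was -0.745 for Fkbp5 (unadjusted p = 0.0103, adjusted p = 0.318), which is -0.12 without the covariate, -0.71 for Zbtb16 and -0.44 for Hif3a, and between -0.15 and 0.21 for Nr3c1, Nr3c2 and Crhr1. That covariate nearly coincides with injury, apart from CKO mTBI replicate 1.

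Crhr1 (ENSMUSG00000018634, GRCm38 chr11:104132855-104175523, plus strand) encodes the main CRH receptor of the brain, which couples to cyclic AMP. It had 9.30, 9.66 and 8.62 CPM in CKO mTBI libraries, 9.87, 11.8 and 12.6 CPM in WT mTBI libraries, and 10.6, 9.17 and 9.16 CPM in labelled sham libraries. The CKO mTBI libraries were below all WT mTBI libraries, narrowly so at 9.66 against 9.87 CPM, and overlapped labelled sham. The log2 difference was -0.31 ± 0.127 (SE; unadjusted p = 0.0314, adjusted p = 0.732) in CKO mTBI against WT mTBI, 0.24 ± 0.127 (adjusted p = 0.434) in WT mTBI against labelled sham and -0.07 ± 0.127 (adjusted p = 0.999) in CKO mTBI against labelled sham.

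Of 10 further CRH family and stress-axis peptide genes, 5 had enough counts to be tested, and 0 were called in edgeR, with 1 unadjusted p under 0.05 in each comparison. Crhr2, the second CRH receptor gene, which binds the urocortins, had 2.85, 4.60 and 6.29 CPM in CKO mTBI libraries, 4.67, 5.48 and 6.84 CPM in WT mTBI libraries, and 2.23, 2.26 and 2.59 CPM in labelled sham libraries. All injured libraries were above labelled sham, and CKO mTBI replicate 1, whose sum of choroid plexus markers is low, was the lowest of them. The log2 difference was 1.26 ± 0.265 (SE; adjusted p = 0.0678) in WT mTBI and 0.96 ± 0.266 (adjusted p = 0.303) in CKO mTBI, each against labelled sham. DESeq2 called Crhr2 in WT mTBI against labelled sham and no other gene of this list. Crh itself had 1.10, 0.613 and 0.590 CPM in CKO mTBI libraries, 1.85, 0.917 and 1.47 CPM in WT mTBI libraries, and 0.623, 1.13 and 0.942 CPM in labelled sham libraries, with all groups overlapping. Its log2 difference was -0.88 ± 0.369 (adjusted p = 0.732) in CKO mTBI against WT mTBI. The vasopressin gene Avp, at no more than 0.513 CPM, gave 1.40 ± 0.761 (adjusted p = 0.450) in WT mTBI against labelled sham.

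The genes with the most similar pattern over the 9 libraries were sought among 14395 genes for Crhbp, Hif3a and Sgk1, the 3 genes with the smallest unadjusted p in any comparison. For Crhbp they were Abca8a (Pearson r = 0.951), Upk1b (0.949), Ankdd1a (0.935), Kcnip3 (0.932) and Ttc22 (0.930). For Hif3a they were B3galt5 (0.965), Plin4 (0.960), Icosl (0.959), Six4 (0.955) and Angptl4 (0.945), of which Plin4 and Angptl4 are in the list of other glucocorticoid-induced genes. For Sgk1 they were Tcim (0.970), Nfkbia (0.955), Chdh (0.949), Unc119b (0.948) and Jhy (0.948), and Nfkbia, the gene of an NF-kappa-B inhibitor, is in the same list. These coefficients describe 9 libraries in which group, depth and cell content are shared by all genes. Hif3a, Plin4 and Angptl4 were each highest in CKO mTBI replicate 2, at 1.64, 5.72 and 1.81 times the next library. So were Sgk1 and Nfkbia, at 1.72 and 1.32 times. The part of that library in the coefficients was not tested.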

How the data were processed

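RNA from sorted hippocampal cells of 9 libraries was sequenced as paired 150 bp reads, per the labels. The authors deposited raw counts per Ensembl gene, made per the file headers with featureCounts 2.0.6 over exons of Ensembl release 98 on GRCm38. The command set no option for pairs or strand, so mates were counted singly and strand was ignored. HISAT2, SAMtools, Trim Galore, FastQC, MultiQC and the build mm10 are named without versions in the submitters' processing notes. Every per-sample column was used.

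Symbols came from GENCODE M21 by Ensembl identifier (55240 of 55421 IDs). Counts of all 9 libraries were fitted in R 4.3.3 with edgeR 4.0.16 (TMM scaling, its default filter on low counts, quasi-likelihood test, Benjamini-Hochberg adjustment over 20032 genes, 3 contrasts). The method was also run on data simulated from the levels and spread of these libraries. With 6 residual degrees of freedom, p-values measure the spread between libraries. Log2 differences and SEs are from the fit to the counts of the 9 libraries. DESeq2 1.42.0 was the alternative tool.

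The 10 genes and the lists (receptor chaperones and coregulators, other glucocorticoid-induced genes, corticosteroid metabolism and transport, CRH family and stress-axis peptides, cell markers) were chosen with earlier results of these data known; 2 genes were left out of the cell marker lists and are not reported here. All 10 genes are named, with the called genes or the 2 of smallest p per list and comparison, and the 5 most similar genes for 3 of them.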

Additional observations from a re-analysis of the deposited data

How the results depend on the processing

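The replicate numbers do not pair the libraries: deviations of same-numbered libraries from their group means correlated at -0.0887 to 0.0733. With the replicate number as a block, the genes called were 107, 3 and 13 in WT mTBI against labelled sham, CKO mTBI against WT mTBI and CKO mTBI against labelled sham, the calls among the 10 genes were 1, 0 and 0, and 2, 0 and 0 list genes were called (Per1 and Crhr2). The block did not turn the direction of any of the 10 genes.

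In WT mTBI against labelled sham, the genes called numbered 102, and 541 in DESeq2, 676 without the count filter, 64 with a stricter one, 253 from the 6 libraries compared, 45 with choroid plexus markers as covariate, 1 with sham libraries summed, 523 without both first injured replicates, and 5 to 252 with a library left out. Calls among the 10 genes were 1, and 2 in DESeq2 (Crhbp, Tsc22d3), 3 without the filter (with Sgk1 added), 2 from 6 libraries (Crhbp, Sgk1), 0 with the covariate or summed sham libraries, and 0 to 2 with a library left out. List genes called were 0, and 2 in DESeq2, 3 without the filter, 2 from 6 libraries, 1 with counts divided by 2, 2 without both first injured replicates, and 0 to 2 with a library left out.

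In CKO mTBI against WT mTBI the genes called were 3, and 18 in DESeq2, 68 without the filter, 1 from 6 libraries, 6 with the covariate, 1 with summed sham libraries, 24 without both first replicates, and 2 to 7 with a library left out. DESeq2 and the fit without the filter each called 1 of the 10 genes (Hif3a), and the fit without the filter also called 3 list genes. In CKO mTBI against labelled sham they were 14, and 226, 387, 71, 75, 0, 337 and 2 to 128 under the same settings in the same order. Calls among the 10 genes were 0, and 3 in DESeq2, 5 without the filter, 1 from 6 libraries, 4 without both first replicates and 0 to 2 with a library left out. List genes called were 0, and 3, 8, and 6 in DESeq2, without the filter and without both first replicates, and 0 to 2 with a library left out.

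Directions turned in these cases. With the covariate, the log2 difference was -0.399 for Sgk1 and -0.227 for Pdk4 in WT mTBI against labelled sham, -0.0382 for Crhbp in CKO mTBI against WT mTBI, and -0.211 for Fkbp5 in CKO mTBI against labelled sham. With a library left out, Hif3a ranged from -0.0777 to 0.0198 in WT mTBI against labelled sham, turning without WT mTBI replicate 3. In CKO mTBI against WT mTBI the ranges were -0.0773 to 0.617 for Sgk1 and -0.0385 to 0.403 for Zbtb16, turning without CKO mTBI replicate 2, -0.0894 to 0.0607 for Nr3c1, turning without it or WT mTBI replicate 3, and -0.204 to 0.15 for Tsc22d3, turning without it or WT mTBI replicate 2 or 3. They were -0.0514 to 0.189 for Nr3c2, turning without CKO mTBI replicate 3, and -0.0121 to 0.234 for Crhbp, turning without CKO mTBI replicate 1. In CKO mTBI against labelled sham, Fkbp5 ranged from -0.0156 to 0.401, turning without CKO mTBI replicate 2, and Crhr1 from -0.112 to 0.00481, turning without labelled sham replicate 1. Summing sham libraries leaves 1 sham sample, assumed to vary like the others. The cause of the other shifts was not tested.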
